A study of Mus musculus with 24 samples.

Results

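Egr1, Fos, Fosb, Jun, Junb, Nr4a1, Arc, Npas4 and Ier2 are immediate early genes, which cells transcribe within minutes of a stimulus without needing new protein synthesis. The members were taken by gene symbol from the expression table of the mouse retina, and all 9 were found among its 28,802 genes. The questions were how their levels differed between 8 inbred mouse strains, and how much of their spread lay between libraries of the same strain.

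Retinal RNA was sequenced after removal of ribosomal RNA in 24 wild type mice at postnatal day 28, with 3 libraries from each strain. The strains were 129S1/Svlmj, C57BL/6J, NOD/ShiLtJ, A/J, PWK/PhJ, WSB/EiJ, NZO/HlLtJ and CAST/EiJ, the founders of the Collaborative Cross. Sex, lighting and time of day at death are not given in the labels. The values are reads scaled to the library total (cpm), and the size of 1 read gave depths of 57,607,000 to 78,150,000 reads, at which 3 reads equalled between 0.0384 and 0.0521 cpm. Replicate numbers below only name the libraries of a strain, in the order of their deposition. The p-values of differences between strains rest on the spread between these libraries. This spread was moderated toward a trend over all genes, except where no moderation is stated. The p-values of relations come from permuting libraries within strains or, for relations over strain means, from permuting the strains.

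Most immediate early genes encode transcription factors. Serum response factor and CREB, already present in resting cells, switch them on when kinases or calcium signals activate them, and their short-lived messenger RNAs then decline, so that levels report on recent stimulation. In the retina they respond to light and to the handling of the tissue.

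The tissue showed the markers of retina. Opn1sw of cones had a mean of 109 cpm, Trpm1 of bipolar cells 189 cpm, Gad1 of amacrine cells 63.5 cpm, Nefl of ganglion cells 126 cpm and Glul of Muller glia 609 cpm. Of 77 markers in 15 lists, 68 had a mean of at least 0.5 cpm, but not all lists are of retinal cells. They include lens (6 of 6 at that level), pigment epithelium (5 of 6), blood (3 of 4), smooth muscle of ciliary body and iris (2 of 3) and extraocular muscle (1 of 3). Since whole retina was measured, fewer cells of a type and less RNA per cell cannot be told apart.

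Some libraries stood apart before any member was considered. The summed level of 6 lens genes was 1742 cpm in NOD/ShiLtJ replicate 2, 1560 cpm in 129S1/Svlmj replicate 2 and 201 cpm in C57BL/6J replicate 2, against 4.87 to 84.2 cpm in the 21 other libraries, and Cryaa was the most abundant of the 6. Xist, the RNA that coats an inactive X chromosome in female cells, reached 962 cpm in 129S1/Svlmj replicate 3, 906 cpm in C57BL/6J replicate 3, 1081 cpm in PWK/PhJ replicate 2 and 1046 cpm in CAST/EiJ replicate 3. In the 20 other libraries it ranged from 0.123 to 9.71 cpm. Both sets of libraries were left out in turn below, a choice made after the data were seen.

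All 9 members were detected in every library, and no value of a member was under 3 reads. Per kilobase of annotated exon, Jun had a mean level of 2.89 cpm, Fos 2.51, Junb 1.60, Ier2 1.25, Nr4a1 1.09 and Egr1 0.506 cpm. The lowest levels per kilobase were those of Npas4 with 0.176, Arc with 0.118 and Fosb with 0.0695 cpm. The means of Arc (0.361 cpm) and Fosb (0.434 cpm) were below the 0.5 cpm required for testing, which left 7 of the 9 members among the 16,400 genes tested.

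Jun, Nr4a1, Fos and Junb differed between strains beyond the spread of their libraries, whereas Npas4 did not pass the test and the calls of Egr1 and Ier2 depended on how p-values were adjusted and on single libraries. When all strains were compared at once with the moderated F of limma, 6 of the 7 members passed a Storey q-value under 0.01, beside 91.7% of all genes tested. This share is so high because the q-value scales with the estimated share of genes without any difference, here 4.98%. Egr1 therefore passed with a q-value of 0.00669 at an unadjusted p of 0.120, and Ier2 with 0.00578 at an unadjusted p of 0.102. With the Benjamini-Hochberg adjustment in limma, 4 of 7 members passed at 0.01, beside 70.6% of all genes, and Egr1 (adjusted p 0.135), Ier2 (0.116) and Npas4 (0.414) did not. Single libraries also ended the q-value calls, that of Egr1 without 129S1/Svlmj replicate 1 (0.0220) or 3 (0.0194) or WSB/EiJ replicate 3 (0.0104), and that of Ier2 without CAST/EiJ replicate 1 (0.0118) or 2 (0.0131). Both shares of the members lay near or below those of all genes. The moderated F was 16.4 for Jun, 8.22 for Nr4a1, 7.59 for Fos and 5.68 for Junb, and 74.8%, 55.7%, 52.8% and 42.6% of all genes had a smaller F.

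Each strain was then set against the mean of the 7 others in the same fit. Over 7 members and 8 strains, 7 of 56 contrasts were called higher, 12.5% beside 15.8% of all contrasts of all genes, and 7 were called lower, 12.5% beside 16.2%. The calls fell on Egr1, Fos, Jun, Junb and Nr4a1. The 8 contrasts of a gene share libraries. Differences are given on the log2(cpm + 1) scale, which understates changes of low genes.

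**Figure D1:**
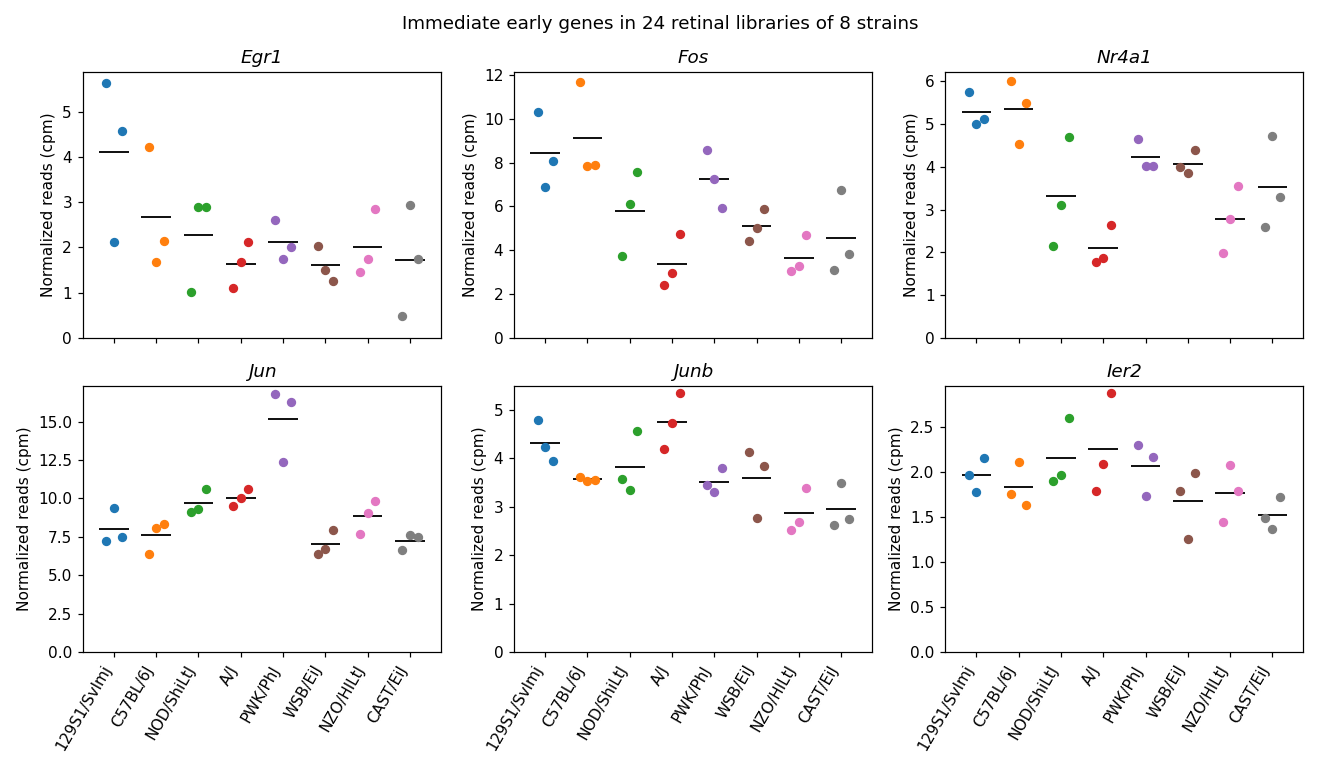
Normalized reads of 6 immediate early genes in cpm (vertical axes, starting at 0) for the 8 strains (horizontal axis); each point is 1 library and each line the mean of 3. Jun separates PWK/PhJ from all other strains, while the libraries of 129S1/Svlmj spread from 2.11 to 5.62 cpm for Egr1.

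Egr1 encodes a zinc finger transcription factor that binds GC-rich promoter elements. It lies at chr18:34859823-34864985 on GRCm38 and had a mean of 2.27 cpm. In cpm for replicates 1, 2 and 3, Egr1 measured 5.62, 2.11 and 4.58 in 129S1/Svlmj, 4.22, 1.68 and 2.14 in C57BL/6J, 1.02, 2.90 and 2.89 in NOD/ShiLtJ, and 1.10, 1.68 and 2.12 in A/J. It measured 2.61, 1.74 and 2.0 in PWK/PhJ, 2.03, 1.5 and 1.27 in WSB/EiJ, 1.46, 1.75 and 2.84 in NZO/HlLtJ, and 0.480, 2.93 and 1.75 in CAST/EiJ. The 3 highest libraries were replicates 1 and 3 of 129S1/Svlmj and replicate 1 of C57BL/6J, and the remaining libraries of both strains were much lower. Among all libraries of both strains, replicate 2 of 129S1/Svlmj and replicate 2 of C57BL/6J were high in lens genes, and replicate 3 of each was high in Xist. NOD/ShiLtJ replicate 2, the library highest in lens genes, was not low in Egr1 for its strain (2.90 cpm, beside 1.02 and 2.89). Within a strain, the highest library exceeded the lowest by 6.10-fold in CAST/EiJ, 2.83-fold in NOD/ShiLtJ, 2.67-fold in 129S1/Svlmj and 2.52-fold in C57BL/6J, and by 1.94-fold or less in the other strains. The highest strain mean, itself over 3 libraries, exceeded the lowest by 2.56-fold.

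By strain mean, the order of Egr1 was 129S1/Svlmj (4.10 ± 1.80 cpm, SD, n = 3), C57BL/6J (2.68 ± 1.35), NOD/ShiLtJ (2.27 ± 1.08), PWK/PhJ (2.12 ± 0.448), NZO/HlLtJ (2.02 ± 0.725), CAST/EiJ (1.72 ± 1.22), A/J (1.63 ± 0.511) and WSB/EiJ (1.60 ± 0.391). All 7 pairs of neighbours overlapped in range. Only 129S1/Svlmj was called against the others in limma, higher by 0.75 (SE 0.24; q-value 0.00889; Benjamini-Hochberg adjusted p 0.0212), with 4.10 against 2.01 cpm. The call was lost without 129S1/Svlmj replicate 1 (difference 0.52, q-value 0.0883) or replicate 3 (0.65, q-value 0.0627). It also just missed 0.01, with q-values of 0.0101 to 0.0119, without replicate 1 or 2 of A/J or NZO/HlLtJ, or replicate 2 or 3 of C57BL/6J, PWK/PhJ or WSB/EiJ.

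Fos, Fosb, Jun and Junb encode subunits of AP-1, a dimer of a Fos protein with a Jun protein that binds DNA through leucine zippers. Fos (chr12:85473890-85477274) measured 10.3, 6.89 and 8.08 cpm in 129S1/Svlmj, 11.7, 7.84 and 7.89 in C57BL/6J, 3.73, 6.11 and 7.59 in NOD/ShiLtJ, and 2.41, 2.96 and 4.75 in A/J. Fos measured 8.56, 7.23 and 5.93 cpm in PWK/PhJ, 4.43, 5.00 and 5.90 in WSB/EiJ, 3.03, 3.28 and 4.67 in NZO/HlLtJ, and 3.11, 6.74 and 3.82 in CAST/EiJ. All libraries of C57BL/6J and 129S1/Svlmj lay above all of A/J and NZO/HlLtJ, and the remaining strains lay between and overlapped one side or both. The strain means fell from C57BL/6J (9.14 ± 2.20 cpm, SD, n = 3) over 129S1/Svlmj (8.43 ± 1.74), PWK/PhJ (7.24 ± 1.31), NOD/ShiLtJ (5.81 ± 1.95), WSB/EiJ (5.11 ± 0.744), CAST/EiJ (4.56 ± 1.92) and NZO/HlLtJ (3.66 ± 0.886) to A/J (3.37 ± 1.22), and each neighbouring pair overlapped in range.

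Against the 7 other strains, limma called Fos higher in C57BL/6J by 0.71 (SE 0.18, q-value 0.00196) and in 129S1/Svlmj by 0.59 (q-value 0.00538). Fos was lower in A/J, with a log2 difference of -0.70 (q-value 0.00179), and in NZO/HlLtJ, with -0.57 (q-value 0.00797), all with the same SE. In cpm, the A/J mean was 0.537 times that of the others, and A/J replicates 1 and 2 were also high in Myh11, Acta2 and Des, smooth muscle markers of the ciliary body and iris (8.03 and 8.84 cpm, against 3.40 in replicate 3). Without these 2 and NOD/ShiLtJ replicate 1, the 3 libraries highest in these markers, the Fos call in A/J was lost (-0.30, q-value 0.314), with 1 library left in that strain. These calls rested on few libraries. The C57BL/6J call was lost without replicate 1 (0.53, q-value 0.0361), the 129S1/Svlmj call without replicate 1 (0.45, q-value 0.0568) or 3 (0.61, q-value 0.0235), and the A/J call without replicate 1 (-0.53, q-value 0.0308) or 2 (-0.64, q-value 0.0187). The NZO/HlLtJ call was lost without its own replicate 1 (-0.47, q-value 0.0730) or 2 (-0.52, q-value 0.0507), and just missed 0.01 without PWK/PhJ replicate 1 or 2 or WSB/EiJ replicate 3 (q-values 0.0103 to 0.0108). The Fos calls in 129S1/Svlmj and NZO/HlLtJ were also lost with the Benjamini-Hochberg adjustment (adjusted p 0.0128 and 0.0173), without moderation (q-values 0.0155 and 0.0211) and without a filter (0.0118 and 0.0157). Without the 4 libraries with high Xist, those in 129S1/Svlmj (0.59, q-value 0.0412), C57BL/6J (0.78, q-value 0.0130) and NZO/HlLtJ (-0.59, q-value 0.0131) were lost at differences as large as before. A call of Fos as lower in CAST/EiJ was gained without its replicate 2 (-0.59, q-value 0.00538). In C57BL/6J and 129S1/Svlmj, summed horizontal cell markers were 29.7 to 31.6 cpm, against 22.6 to 29.5 cpm elsewhere. The ganglion cell sum was 198 to 224 cpm in C57BL/6J and 132 to 204 cpm elsewhere. Their part in these strain differences was not tested.

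Jun (chr4:95049034-95052223) was the member in which 1 strain stood clear of the rest. It measured 16.8, 12.3 and 16.3 cpm in PWK/PhJ, and each of these was above the highest of the 21 libraries of the other strains, which was 10.6 cpm. The other strain means ran from A/J (10.1 ± 0.554 cpm, SD, n = 3), NOD/ShiLtJ (9.68 ± 0.813), NZO/HlLtJ (8.84 ± 1.08), 129S1/Svlmj (8.03 ± 1.19) and C57BL/6J (7.59 ± 1.03) to CAST/EiJ (7.25 ± 0.529) and WSB/EiJ (7.01 ± 0.821), each neighbour overlapping the next. PWK/PhJ, at 15.1 ± 2.43 cpm, was higher than the mean of the others by 0.79 (SE 0.09, limma q-value 2.12e-08), or 1.81-fold in cpm. Jun was lower in WSB/EiJ, with a log2 difference of -0.36 (q-value 0.000827), and in CAST/EiJ, with -0.31 (q-value 0.00153). The WSB/EiJ call was lost without its replicate 1 (-0.30, q-value 0.0119) and the CAST/EiJ call without its replicate 1 (-0.25, q-value 0.0206), whereas the PWK/PhJ call held whichever library was left out. Without PWK/PhJ replicate 2, Jun was also called lower in C57BL/6J (-0.26, q-value 0.00674). Marker levels also differed in these strains. Summed endothelium and pericyte markers were 15.9 to 18.9 cpm in CAST/EiJ against 31.3 to 45.6 cpm elsewhere, the cone and ganglion cell sums were lowest in CAST/EiJ, and the bipolar cell sum was highest in WSB/EiJ (586 to 663 cpm). Their part in the level of Jun was not tested.

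Junb (chr8:84974484-84978719) had the narrowest range of strain means among the 5 members with called contrasts, with a highest to lowest ratio of 1.66. It measured 4.18, 4.73 and 5.35 cpm in A/J, where Fos was lowest, and 2.52, 2.69 and 3.39 cpm in NZO/HlLtJ and 2.63, 3.48 and 2.74 cpm in CAST/EiJ. The other 5 strain means lay between 3.51 and 4.32 cpm, and all 7 neighbouring pairs overlapped in range. In limma, Junb was higher in A/J by 0.36 (SE 0.09, q-value 0.00129), and lower in NZO/HlLtJ with -0.30 (q-value 0.00507) and in CAST/EiJ with -0.26 (q-value 0.00440). The A/J call was lost without replicate 3 (0.28, q-value 0.0247), and without the 3 libraries high in smooth muscle markers (0.50, q-value 0.0195). The NZO/HlLtJ call was lost without replicate 1 (-0.24, q-value 0.0664) or 2 (-0.27, q-value 0.0397), and the CAST/EiJ call without replicate 1 (-0.21, q-value 0.0439) or 3 (-0.23, q-value 0.0330). With the Benjamini-Hochberg adjustment both were lost (adjusted p 0.0110 and 0.0147). Junb in NZO/HlLtJ was also lost without moderation (q-value 0.0111) and without a filter (0.0103), and in CAST/EiJ with quantile normalization (-0.22, q-value 0.0105) and without high Xist (-0.24, q-value 0.0373). An annotated exon of Prdx2 on the opposite strand covers 173 of the 2301 exon bases of Junb, and Junos covers 232 of the 3189 of Jun. Whether strand was used in counting is not given in the sources used here, so that reads in these stretches cannot be assigned with certainty.

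Fosb (chr7:19302696-19310052), below the filter by its mean, ranged from 0.192 to 0.744 cpm over the 24 libraries. Its highest strain mean was that of A/J (0.614 ± 0.138 cpm, SD, n = 3) and its lowest that of CAST/EiJ (0.264 ± 0.0489 cpm), whose libraries did not overlap. Counting of whole reads alone would give 58.0% of its variance within strains.

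Nr4a1 (chr15:101254269-101274796) encodes an orphan nuclear receptor, a transcription factor of the steroid receptor family without a known natural ligand. It measured 5.74, 5.01 and 5.12 cpm in 129S1/Svlmj, 6.01, 4.54 and 5.49 in C57BL/6J, 2.15, 3.10 and 4.69 in NOD/ShiLtJ, and 1.78, 1.86 and 2.64 in A/J. Nr4a1 measured 4.65, 4.03 and 4.02 cpm in PWK/PhJ, 3.99, 3.84 and 4.39 in WSB/EiJ, 1.98, 2.77 and 3.56 in NZO/HlLtJ, and 2.59, 4.72 and 3.29 in CAST/EiJ. The 6 libraries of 129S1/Svlmj and C57BL/6J were at the top with a slight overlap with CAST/EiJ, NOD/ShiLtJ and PWK/PhJ, and A/J was at the bottom. NOD/ShiLtJ, NZO/HlLtJ and CAST/EiJ each held libraries far apart. The means fell from C57BL/6J (5.35 ± 0.742 cpm, SD, n = 3), 129S1/Svlmj (5.29 ± 0.392), PWK/PhJ (4.23 ± 0.361), WSB/EiJ (4.07 ± 0.285), CAST/EiJ (3.53 ± 1.09), NOD/ShiLtJ (3.31 ± 1.28) and NZO/HlLtJ (2.77 ± 0.792) to A/J (2.10 ± 0.475), and among neighbours only 129S1/Svlmj and PWK/PhJ did not overlap.

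In limma, Nr4a1 was lower in A/J, with a log2 difference of -0.69 (SE 0.13, q-value 0.000164) and 0.514 times the mean of the others in cpm, a call that held whichever single library was left out. It was lost without the 3 libraries high in smooth muscle markers, of which 2 are from A/J (-0.47, q-value 0.0828). Nr4a1 was higher in C57BL/6J by 0.50 (q-value 0.00335) and in 129S1/Svlmj by 0.49 (q-value 0.00300). The C57BL/6J call was lost without replicate 1 (0.43, q-value 0.0343) or 3 (0.48, q-value 0.0233), and the 129S1/Svlmj call without replicate 1 (0.44, q-value 0.0243) or 3 (0.51, q-value 0.0147). Both calls were lost at similar differences without the 4 libraries with high Xist (0.47, q-value 0.0421, and 0.50, q-value 0.0269), that in C57BL/6J without moderation (q-value 0.0108), and that in 129S1/Svlmj without the 3 libraries high in lens genes (0.51, q-value 0.0112). Nr4a1 was gained as lower in NZO/HlLtJ without NOD/ShiLtJ replicate 1 (-0.40, q-value 0.00651) or NZO/HlLtJ replicate 3 (-0.52, q-value 0.00822). A/J was thus called lower for Fos and Nr4a1 and higher for Junb when all its libraries were used, and smooth muscle content and strain cannot be told apart with 1 library left. That library, A/J replicate 3, was in turn high in retinal pigment epithelium markers (72.6 cpm, against 16.1 and 42.2 cpm in replicates 1 and 2). Leaving out the libraries high in smooth muscle markers was an alternative chosen after the data were seen. Summed microglia markers were 7.54 to 7.69 cpm in all A/J libraries, against 3.51 to 6.88 cpm elsewhere. Their part in the A/J differences was not tested.

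Npas4 and Arc are the members most closely tied to neuronal activity. Npas4 encodes a transcription factor induced by calcium entry, and Arc a protein that governs the removal of AMPA receptors from synapses. Npas4 (chr19:4984355-4990317) ranged from 0.506 to 1.30 cpm, and its extremes of strain mean were 0.837 ± 0.409 cpm (SD, n = 3) in 129S1/Svlmj and 0.590 ± 0.0251 cpm in NZO/HlLtJ. Every neighbouring pair of its strain means overlapped in range, and its moderated F was 1.10 (unadjusted p 0.399, limma q-value 0.0206). The q-value of Npas4 passed 0.01 without 129S1/Svlmj replicate 1 (0.00698) or 2 (0.00544), without C57BL/6J replicate 3 (0.00856), and without the 3 libraries high in lens genes (0.00645). Arc (chr15:74669083-74672571) measured 0.546, 0.557 and 0.434 cpm in WSB/EiJ, its highest strain, and 0.302, 0.295 and 0.287 cpm in CAST/EiJ, its lowest. Arc was below the filter by its mean, and without a filter its F was 5.21 (Benjamini-Hochberg adjusted p 0.00337 in limma). Counting of whole reads alone would give 158% of the variance of Arc within strains.

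Ier2 (chr8:84661331-84662855) encodes a nuclear protein of the immediate early response. It ranged from 1.25 to 2.88 cpm, with the highest mean in A/J (2.25 ± 0.561 cpm, SD, n = 3) and the lowest in CAST/EiJ (1.53 ± 0.177 cpm), and none of its 8 contrasts was called. The nearest, Ier2 lower in CAST/EiJ (q-value 0.0154), was called without A/J replicate 1 (-0.24, q-value 0.00970) or WSB/EiJ replicate 2 (-0.24, q-value 0.00738), and without the 3 libraries high in smooth muscle markers.

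Spread within and between strains was then separated by variance components of log2(cpm + 1). Egr1 had a standard deviation of 0.46 between libraries of a strain and 0.17 between strains, so that 88.0% of its variance lay within strains. Over all genes tested, the median share was 33.2%, and 10.5% of genes had a share over 80%. The share was 100% for Npas4 and 81.6% for Ier2, but 43.8% for Junb, 38.9% for Fos, 35.8% for Nr4a1 and 19.5% for Jun. An estimate of the variance between strains below 0 was set to 0, which gives a share of 100%. This was so for Npas4, with an F without moderation of 0.935, and does not show that its strains were equal. By these estimates, the larger part of the variance lay between libraries of a strain for Egr1, Ier2 and Npas4, and between strains for Jun. The part within strains includes the counting of reads.

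The spread within strains was wide for all 7 tested members. The standard deviation within strains of Egr1 exceeded that of 99.6% of all genes, and 68 of 16,400 genes had a larger one. For Fos (0.33) the figure was 99.2%, for Nr4a1 (0.25) 98.3%, for Ier2 (0.16) 93.7%, for Jun (0.15) 92.1%, for Junb (0.15) 91.8% and for Npas4 (0.15) 90.0%, beside a median over all genes of 0.09. Among the 1179 genes whose mean was within 1.2-fold of that of Egr1, Egr1 was above 99.2%. Counting of reads would give 3.12% of the variance of Egr1 within strains, 3.69% for Fos and 8.40% for Nr4a1. It would give 25.6% for Ier2 and 34.5% for Npas4, beside a median of 38.0% over all genes.

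**Figure D2:**
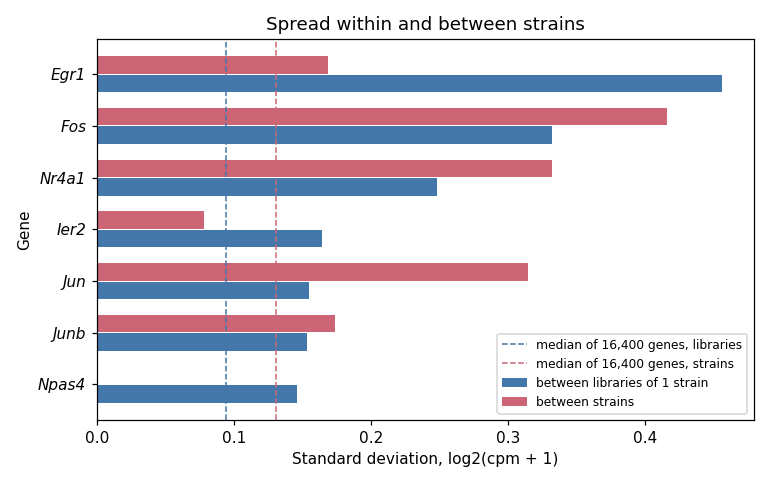
Standard deviation of log2(cpm + 1) (horizontal axis) between libraries of a strain and between strains, from variance components, for the 7 tested immediate early genes (vertical axis); dashed lines are the medians of 16,400 genes. The bar within strains is the longer for Egr1 (0.46 against 0.17) and the bar between strains for Jun (0.31 against 0.15).

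The within-strain share of Egr1 rested on single libraries. It was 100% without replicate 1 or 3 of 129S1/Svlmj, 72.0% without replicate 2 of that strain, 78.9% without NOD/ShiLtJ replicate 1 and 74.0% without CAST/EiJ replicate 2. Leaving out the 3 libraries high in lens genes gave 66.3%, and leaving out the 4 with high Xist gave 100%. The shares of Npas4 and Ier2 also moved when single libraries were left out, from 78.1% to 100% for Npas4 and from 70.6% to 91.9% for Ier2. Under the other alternatives, the share of Ier2 ran from 59.1% to 88.9%.

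Libraries of a strain that were high in Egr1 were also high in Fos and Nr4a1. Over the deviations of the 24 libraries from their strain means, Egr1 and Fos had a Pearson r of 0.83 (permutation p 0.00025) and a Spearman rho of 0.84 (permutation p 0.00025), and both deviated to the same side in 18 of 24 libraries. For Egr1 and Nr4a1, r was 0.77 (permutation p 0.00057) and rho 0.80 (permutation p 0.00026), with the same side in 16 of 24. Adjusted over the 8 relations of Egr1 with the other members, the permutation p of r was 0.0020 for Fos and 0.00228 for Nr4a1. By its deviation from the strain mean, Egr1 was farthest from the median in CAST/EiJ replicate 1 and 129S1/Svlmj replicate 2. Without these 2 libraries, below called extreme in Egr1, r was 0.82 with Fos and 0.79 with Nr4a1.

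Among 16,399 genes ranked by r to Egr1 within strains, Fos was the highest and Nr4a1 the second. When the same two-sided permutation test was run on every gene and adjusted over all of them, no relation passed 0.05 (0% of genes), and the adjusted p was 0.766 for both Fos and Nr4a1. At an unadjusted p under 0.05 there were 1012 genes, 6.17%. The median r over all genes was -0.14, and the central 90% of genes lay between -0.49 and 0.30.

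The remaining members related less to Egr1. For Junb, r was 0.50 (permutation p 0.0292, rank 127) and rho 0.53 (permutation p 0.0249), and the adjusted p over the 8 relations was 0.0779. The relation of Junb passed 0.05 without 129S1/Svlmj replicate 3 (adjusted permutation p 0.0462) or NOD/ShiLtJ replicate 1 (0.0487) or 2 (0.0245). It also passed under other alternatives given below. For Npas4 r was 0.42 (rho 0.34), for Ier2 0.26 (rho 0.27), for Arc 0.25 (rho 0.38), for Jun -0.02 (rho -0.05) and for Fosb -0.09 (rho -0.04), with permutation p of 0.142, 0.224, 0.264, 0.931 and 0.720 for r and 0.187, 0.232, 0.106, 0.851 and 0.866 for rho. Leaving out single libraries gave r of 0.14 to 0.37 for Arc and 0.25 to 0.51 for Npas4. Without the 2 libraries extreme in Egr1, Arc had an r of 0.48 (permutation p 0.0263, adjusted p 0.0702). Its rho was then 0.53 (permutation p 0.0181, adjusted p 0.0483). Fos and Nr4a1 were also related to each other, with r of 0.89 (permutation p 1e-05, the smallest that the resamples can give) and rho of 0.87 (permutation p 6e-05), and each was the gene with the highest r to the other among all tested. This pair was chosen after its value was seen. Without CAST/EiJ replicate 2 and A/J replicate 3, whose deviations of Fos were farthest from the median deviation, its r was 0.85 (permutation p 0.00034).

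**Figure D3:**
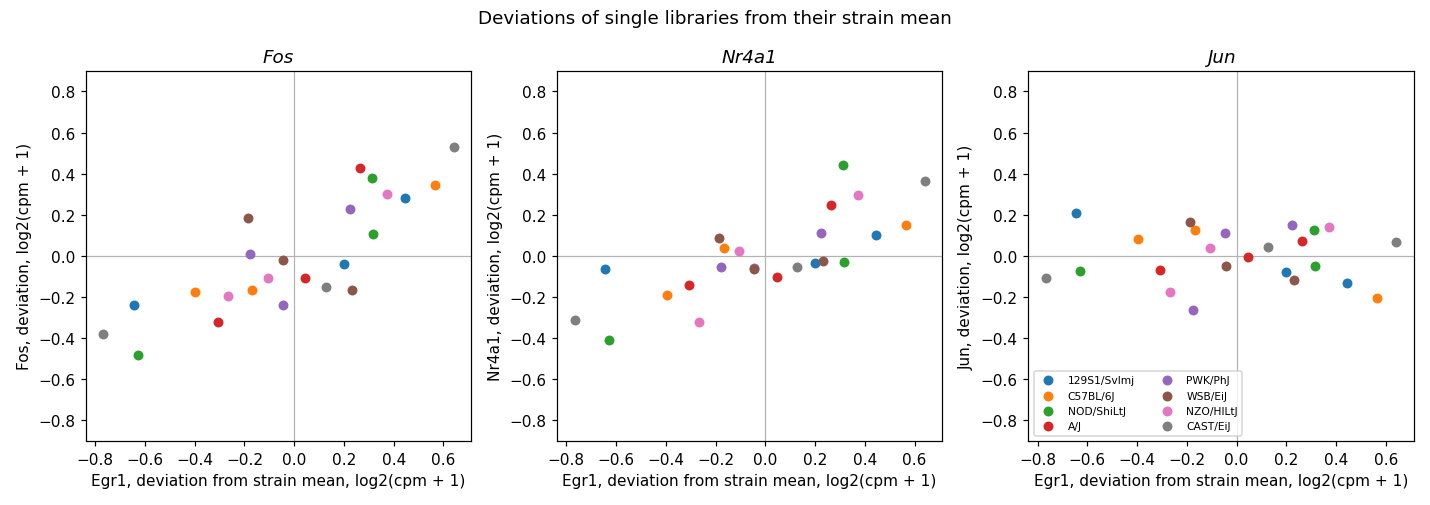
Deviation of each of 24 libraries from its strain mean in log2(cpm + 1), with Egr1 on the horizontal axes and Fos, Nr4a1 and Jun on the vertical axes; colours are strains. Points follow a rising line for Fos (r = 0.83) and Nr4a1 (r = 0.77) and none for Jun (r = -0.02).

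Across the 8 strain means Fos ranked 292 and Nr4a1 701 among 16,399 genes, well below their ranks within strains, and no relation passed. Egr1 and Fos had r of 0.75 (exact permutation p 0.0212, 0.169 adjusted over 8 relations) and rho of 0.76 (exact p 0.0368). For Nr4a1, r was 0.66 (exact permutation p 0.0695) and rho 0.55 (exact p 0.171). The other 6 members lay between -0.33 for Fosb and 0.47 for Npas4, with no exact permutation p under 0.252. In log2(cpm + 1), 129S1/Svlmj and CAST/EiJ were the strains farthest from the median of Egr1. Without them, r with Fos over 6 strains was 0.77 (exact permutation p 0.0708).

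Other genes with the highest r to Egr1 within strains, after Fos and Nr4a1, were Gm43011, Arfgef1, Utp14b, Tsc22d2, Gm47693, Gm14416, Cox20 and Rc3h1, with r from 0.73 to 0.67 and permutation p from 0.00125 to 0.0165. Their rho lay between 0.58 and 0.73 (permutation p 0.0301 and 0.00186). Gm43011 (mean 25.7 cpm) and Gm47693 (0.592 cpm) are unclassified transcripts and Gm14416 is a pseudogene. Arfgef1 encodes an exchange factor for ARF proteins in the Golgi, Tsc22d2 a TSC22 domain protein, Cox20 an assembly factor of cytochrome c oxidase and Rc3h1 the RNA-binding protein Roquin-1. Their spread within strains was much smaller than that of Egr1, with a standard deviation of 0.03 for Arfgef1 and 0.17 for Utp14b and Gm14416. Without the 2 libraries extreme in Egr1, r was 0.63 for Gm43011 and 0.42 for Gm14416. The lowest r were those of Parp6 (-0.82, rho -0.81), Tyk2 (-0.81, rho -0.77) and Gm7368 (-0.77, rho -0.79), with permutation p of 0.00013, 0.0002 and 0.00078 for r and 0.00013, 0.00111 and 0.00046 for rho. Without the 2 libraries their r was -0.74, -0.72 and -0.79. Over strain means, the highest r were 0.95 for Sdcbp and Gm45129 and 0.94 for Heph, Jpt2 and Cap2, and all 5 genes had their highest mean in 129S1/Svlmj. Within strains, the r of these 5 to Egr1 ran from -0.46 for Cap2 to 0.17 for Sdcbp.

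Genes of the same response were examined as 6 lists, and their r to Egr1 within strains is set beside that of all genes, of which 30.2% had a positive r. Of 21 other early response genes, most of them transcription factors, 11 were tested, since Egr2, Egr3, Egr4, Fosl1, Nr4a3, Klf2, Klf4, Maff, Cebpb and Myc had means under 0.5 cpm. Of the 11, 7 had a positive r to Egr1 within strains, with a median of 0.20, from 0.45 (permutation p 0.135) for Fosl2, a Fos family subunit, to -0.34 for Ier5. Atf3, a factor of the stress response, had the largest F of the list (132), with a mean of 3.88 cpm in NOD/ShiLtJ and 0.188 cpm in CAST/EiJ, but an r to Egr1 of 0.14. Of 15 tested feedback inhibitors of MAP kinase and receptor signalling, 11 had a positive r, with a median of 0.12. Dusp1, a phosphatase that inactivates MAP kinases and is itself an early response gene, had the highest (0.66, permutation p 0.00375, rank 12; rho 0.72, permutation p 0.00238; r 0.58 without the 2 libraries extreme in Egr1). Dusp1 was highest in 129S1/Svlmj (6.54 cpm) and lowest in A/J (2.62 cpm). Socs3, an inhibitor of cytokine receptors, had the lowest r of the list (-0.28, but 0.02 without the same 2 libraries), and Trib1 the largest F (24.7).

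Of 15 tested activity-regulated effectors, 10 had a positive r, with a median of 0.09. Gadd45b, a gene of DNA demethylation and stress, had the highest (0.53, permutation p 0.0160; rho 0.54, permutation p 0.0180; r 0.42 without the same 2 libraries), Pcsk1, a prohormone convertase, the lowest (-0.36), and Dclk1, a kinase of neurons, the largest F (133). Without these 2 libraries, the r of Pcsk1 was -0.68. Of 21 tested upstream factors and kinases, which include Srf and Creb1, 10 had a positive r and 11 a negative one. They lay between 0.24 for Elk3 and -0.45 for Map2k1, and Mef2c had the largest F (76.3). Without the same 2 libraries, r was 0.61 for Elk3 and -0.28 for Map2k1. All 10 tested genes of heat shock and stress had a negative r, with a median of -0.11, near the -0.14 of all genes, between -0.06 for Hspa1a and -0.42 for Hsp90aa1 (permutation p 0.0263; rho -0.50, permutation p 0.0152; r -0.58 without the same 2 libraries). Hspa8 had the largest F of these (97.7), from 191 cpm in C57BL/6J to 68.1 cpm in NZO/HlLtJ. Of 16 time-of-day genes, 7 had a positive r and 9 a negative one, between 0.35 for Per1 and -0.35 for Arntl, which peak at opposed times of day, and neither had a permutation p under 0.05 (0.223 and 0.182). Bhlhe41 had the largest F among them (40.0). Dusp2, Ptgs2, Hspb1 and Cdkn1a had means under 0.5 cpm, and Mkl1 and Mkl2 were not found by those symbols. None of the genes of the 6 lists passed the adjustment over all genes for its relation to Egr1. For r, 3 had an unadjusted permutation p under 0.05, beside 6.17% of all genes. By rho, Fosl2 (0.55, permutation p 0.0424) and Map2k1 (-0.49, permutation p 0.0468) were also under 0.05. By limma's F-test with the Benjamini-Hochberg adjustment, 8 of 11, 14 of 15, 13 of 15, 14 of 21, 10 of 10 and 12 of 16 tested genes of the 6 lists differed between strains, in the order given, beside 70.6% of all genes.

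Properties of the libraries were set beside Egr1 in the same way, in 19 relations over deviations within strains. None passed 0.05 after adjustment. The summed level of 4 cone genes, 133 to 271 cpm with Opn1sw the most abundant and none near 0, had the lowest r to Egr1 (-0.58, permutation p 0.0220; rho -0.54, permutation p 0.0322; adjusted p 0.312; r -0.36 without the 2 libraries extreme in Egr1). The summed level of Myh11, Acta2 and Des, markers of ciliary body and iris smooth muscle, had an r of -0.49 to Egr1 (permutation p 0.0329; rho -0.50, permutation p 0.0341; adjusted p 0.312; r -0.57 without the same 2), -0.62 to Fos (permutation p 0.0163; rho -0.55, permutation p 0.0259; adjusted p 0.310; r -0.61 without the 2 libraries extreme in Fos) and -0.65 to Nr4a1 (permutation p 0.0122; rho -0.56, permutation p 0.0180; adjusted p 0.232; r -0.59 without the 2 extreme in Nr4a1). This sum was 8.03 cpm in A/J replicate 1, 8.84 in A/J replicate 2 and 8.03 in NOD/ShiLtJ replicate 1, and 1.99 to 4.57 cpm in the 21 other libraries. Myh11 was the most abundant of these markers and Des the least, with means of 2.06 and 0.169 cpm. Those 3 libraries were also low in Egr1, Fos and Nr4a1 for their strains, apart from an Egr1 near the strain mean in A/J replicate 2, and without them r to Egr1 was 0.79 for Fos and 0.71 for Nr4a1, each with an adjusted permutation p of 0.0175 over the 8 relations. The relation of Egr1 to lens genes had an r of -0.27 (permutation p 0.374), to Xist 0.02 (permutation p 0.946) and to the number of reads -0.34 (permutation p 0.152).

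The slope of each library's values on the GC content of the transcripts differed between libraries, and had an r of -0.30 to Egr1 (permutation p 0.267), 0.56 to Jun (permutation p 0.0271; rho 0.56, permutation p 0.0314; adjusted p 0.257; r 0.47 without the 2 libraries extreme in Jun) and 0.47 to Junb (permutation p 0.0445; rho 0.47, permutation p 0.0497; adjusted p 0.610; r 0.15 without the 2 extreme in Junb). Among the other measures, Jun had an r of 0.59 to the amacrine cell sum (permutation p 0.0185; rho 0.53, permutation p 0.0341; adjusted p 0.257; r 0.36 without the same 2). Npas4 had an r of 0.66 to blood genes (permutation p 0.0286; rho 0.61, permutation p 0.0305; adjusted p 0.275; r 0.68 without 2) and -0.64 to microglia (permutation p 0.0290; rho -0.45, permutation p 0.0562; adjusted p 0.275; r -0.29 without 2). To Xist, Npas4 had an r of -0.53 (permutation p 0.124; rho -0.65, permutation p 0.00637; adjusted p of r 0.394; r -0.74 without 2). Ier2 had an r of 0.41 to blood genes (permutation p 0.0290; rho 0.47, permutation p 0.0324; adjusted p 0.550; r 0.51 without 2). For Jun and the horizontal cell sum, r was -0.50 (permutation p 0.0603; rho -0.48, permutation p 0.0492; adjusted p 0.382; r -0.37 without 2). For Fos and the number of reads, r was -0.41 (permutation p 0.0607; rho -0.45, permutation p 0.0413; adjusted p 0.497; r -0.50 without 2). For Nr4a1 and the number of reads, r was -0.32 (permutation p 0.0486; rho -0.40, permutation p 0.0601; adjusted p 0.461; r -0.44 without 2). No member had an r to these measures that passed after adjustment over its 19. With this slope as a covariate, an alternative chosen after the data were seen, r to Egr1 was 0.83 for Fos, 0.85 for Nr4a1 and 0.77 for Junb, the last with an adjusted p of 0.00141 over the 8 permutation tests, and 0.19 for Jun. Nr4a1, Fos and Junb then ranked 1, 2 and 4 among all genes.

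Promoters in the RefSeq table for GRCm38.p6 matched 6 members, Fos, Fosb, Jun, Junb, Nr4a1 and Npas4. Those of Fos and Nr4a1, which deviated together with Egr1, and of Jun, which did not, are given as the 250 bases before the annotated start, on the strand of the gene. They lie at chr12:85473640-85473889 (plus strand), chr15:101266596-101266845 (plus strand) and chr4:95052223-95052472 (minus strand). No base of them is in an annotated exon, and the start of Nr4a1 lies inside the longer span of that gene in the expression table. The window of Jun begins at the end position printed for that gene, 95052223, which was not counted as an exon base. Capitals mark TGACG on either strand, which is the core of the cyclic AMP response element bound by CREB and reads CGTCA on the other strand.
Fos: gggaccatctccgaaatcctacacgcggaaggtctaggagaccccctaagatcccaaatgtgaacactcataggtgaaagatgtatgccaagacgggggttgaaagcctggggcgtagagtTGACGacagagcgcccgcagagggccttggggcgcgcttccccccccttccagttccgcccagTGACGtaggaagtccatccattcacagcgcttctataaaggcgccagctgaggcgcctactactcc
Nr4a1: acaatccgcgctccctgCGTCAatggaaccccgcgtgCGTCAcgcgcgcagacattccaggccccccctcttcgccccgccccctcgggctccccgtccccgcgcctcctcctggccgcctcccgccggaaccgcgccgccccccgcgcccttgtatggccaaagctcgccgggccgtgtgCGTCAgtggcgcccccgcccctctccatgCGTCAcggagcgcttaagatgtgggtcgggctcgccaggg
Jun: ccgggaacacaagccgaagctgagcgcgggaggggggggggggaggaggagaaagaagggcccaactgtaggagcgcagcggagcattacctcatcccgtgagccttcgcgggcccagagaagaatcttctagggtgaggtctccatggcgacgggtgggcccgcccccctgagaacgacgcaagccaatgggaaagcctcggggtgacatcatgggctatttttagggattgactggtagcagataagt

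The letters TGACG occurred 4 times in the window of Nr4a1, 2 times in that of Fos, 2 times in that of Npas4, 1 time each in those of Fosb and Junb, and not in that of Jun. Of 32,851 windows of the same length in the table, 17.8% held them. The full element TGACGTCA, which contains TGACG, was held by 1.55% of windows, the AP-1 element TGANTCA by 6.75%, and the CArG box of serum response factor by 1.47%. None of these longer elements was found in the 6 windows, which says only that the exact letters are not within these 250 bases. Variants of the elements were not searched. The window of Jun, for example, holds TGACATCA, which differs from TGACGTCA in 1 base.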

How the data were processed

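Reads from total RNA of the retina were aligned by the authors to GRCm38/mm10 with STAR and assigned to genes in Partek, tools named in the submitters' processing notes without versions. The deposited values are cpm, reads of a gene over all reads of the library, with 0.0001 added by the authors. In each library, 86.2% to 88.6% of low values were whole reads to within 0.02 of a read, and tests for counts were not used. The 16,400 of 28,802 genes whose mean reached 0.5 cpm were tested on log2(cpm + 1) with limma 3.58.1 in R 4.3.3 (lmFit, eBayes with trend), two-sided, over all 24 libraries, and Storey's q-value (with the share of p-values over 0.5, a setting chosen after a first look at the data) was limited to 0.01. Relations of Egr1 used deviations from strain means and 100000 permutations of libraries within strains in NumPy 2.4.6, or all 40320 orders of the strains, two-sided. The model and the permutation test were tried on simulated data. A library's GC slope used the longest GENCODE M21 transcript of 98.4% of genes tested. Named are all members, the 10 genes with the highest and the 3 with the lowest r to Egr1 within strains, the 5 with the highest r over strain means, and of each list the genes with the highest r, lowest r and largest F. Alternatives were quantile normalization, scaling by median ratios, a pseudocount of 0.1, a limit on the mean of 5 cpm or none, no moderation, Benjamini-Hochberg adjustment, a q-value limit of 0.05, and leaving out libraries or strains. The members and lists were chosen with earlier results of these data known. The level of 1 marker is not reported here. Libraries high in lens genes, smooth muscle genes or Xist and the GC slope were considered after the data were seen.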

Additional observations from a re-analysis of the deposited data

How the results depend on the processing

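No called difference and no relation that passed turned its direction under any alternative, while relations that did not pass, such as that of Egr1 and Jun within strains, took both signs. With a filter of 5 cpm, which only Fos and Jun pass, 2 members passed the F-test, and 3 contrasts were called higher and 4 lower. Without moderation, 4 contrasts were called higher. With the Benjamini-Hochberg adjustment 4 were called lower, and with a q-value limit of 0.05, 11 were called lower. Without the 4 libraries with high Xist, an alternative chosen after seeing the data, 2 contrasts were called higher, those of Jun in PWK/PhJ and Junb in A/J, and the within-strain share of Egr1 was 100%. Without the 3 libraries high in lens genes, also chosen after seeing the data, this share was 66.3%. Leaving out each library in turn, between 5 and 7 members passed the F-test, 4 to 7 contrasts were called higher and 5 to 8 lower, 2 or 3 relations of Egr1 within strains passed, and its within-strain share ran from 72.0% to 100%. The call on Egr1 in 129S1/Svlmj was lost with a pseudocount of 0.1 (1.01, q-value 0.0155), without a filter (q-value 0.0192), with quantile normalization (q-value 0.0108), without moderation (q-value 0.0226) and without high Xist (0.63, q-value 0.0886). Without a filter, Arc in WSB/EiJ was called higher (0.18, q-value 0.000554), Fosb in A/J higher (0.20, q-value 0.00999) and Fosb in CAST/EiJ lower (-0.20, q-value 0.00430). Egr1 and Junb within strains passed with median-ratio scaling (r of 0.57, adjusted permutation p 0.0371), quantile normalization (0.59, 0.0331) and without the libraries high in lens genes (0.68, 0.0131). Without the 3 libraries high in smooth muscle markers, chosen after seeing the data, the calls on Egr1 in 129S1/Svlmj (0.66 against 0.75, q-value 0.0175) and, with 1 A/J library left, on Fos (-0.30 against -0.70), Nr4a1 (-0.47 against -0.69) and Junb (0.50 against 0.36) in A/J were lost, and Nr4a1 in NZO/HlLtJ (-0.44, q-value 0.00509) and Ier2 in CAST/EiJ (-0.27, q-value 0.00494) were gained as lower. The F-test of Egr1 was lost without a filter (0.0361), without moderation (0.0176) and without high Xist (0.0327), and that of Ier2 without a filter (0.0331), without moderation (0.0125) and with quantile normalization (0.0137). No relation over strain means passed under the alternatives run. The cause of these changes was not tested. Each strain has 3 libraries, with a mean of 153 reads for Egr1. The labels give no sex, light, time of day or dissection, and their part in the spread was not tested.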
